A study of Homo sapiens with 6 samples.

Results

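Mitochondrial ribosomal proteins were examined after silencing of Mic60, as the set of all protein-coding genes whose current symbol starts with MRPL or MRPS. The set held 78 genes, of which 76 matched a row among the 57736 rows of the deposited count table, and all 76 passed the count minimum that left 14653 genes for testing. MRPL45 and MRPS21 were not analysed here, because their current identifiers matched no row. By position in the human mitochondrial ribosome, 51 of the 78 belong to the large and 27 to the small subunit. MRPS18A and MRPS30 were counted with the large subunit, in which their proteins sit despite the symbol. MRPS36, whose product is now also described as a component of the α-ketoglutarate dehydrogenase complex and is named KGD4 in RefSeq, was kept with the small subunit by its symbol.

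The RNA came from PC3 cells, a human prostate cancer line established from a bone metastasis, given an siRNA against Mic60 (siMic60, n = 3) or a control siRNA (siCTRL, n = 3). The sample titles call the same groups KO and WT, and no allele, dose or time after transfection is given for them. Mic60, encoded by IMMT, is the core of the MICOS complex, which shapes the cristae of the inner mitochondrial membrane. The QuantSeq 3′ mRNA kit used for the libraries yields tags from the 3′ ends of polyadenylated RNA. Levels in CPM (counts scaled to a common library size) therefore needed no correction for gene length. Comparisons of level between genes can still be affected by shared exons or near-identical copies, described below.

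The mitochondrial ribosome translates the few messages that mitochondrial DNA still encodes, all of them for membrane subunits of oxidative phosphorylation. Its rRNAs are transcribed in the organelle, whereas all of its proteins are encoded in the nucleus, made in the cytosol and imported. Part of them descend from proteins of the bacterial ribosome and the rest were added in the mitochondrial lineage, and the finished ribosome works at the inner membrane.

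IMMT was measured first. It had 5.83, 7.34 and 8.53 CPM in the siMic60 libraries, against 88.9, 91.2 and 90.4 CPM in the siCTRL libraries, which left 8.12% of the control level (log2 fold change −3.62, SE 0.15, edgeR adjusted p = 4.29e-10). Library totals were 6644495 to 8779877 counts, and 3 counts corresponded to 0.346 to 0.46 CPM. Epithelial keratins and EPCAM were present in every library, with a summed level of 1055 to 1086 CPM after siMic60 and 1470 to 2055 CPM in siCTRL, the highest sum being that of siCTRL replicate 1. The sum follows KRT19, the most abundant of the 4 (605 CPM after siMic60 and 1158 CPM in siCTRL), and the genes did not move together. KRT18, KRT19 and EPCAM fell, whereas KRT8 rose to 183 CPM in siMic60 cells, against 119 CPM in siCTRL cells (edgeR adjusted p = 0.00149). KLK3, a marker of androgen-dependent prostate cells, was at 0 in all libraries, and 5 of 8 leukocyte markers were at 0 in all, with summed levels of 0.346 to 2.57 CPM after siMic60 and 1.32 to 2.00 CPM in siCTRL. The part of these marker differences in the results below was not tested. Without siCTRL replicate 1, 8 mitochondrial ribosomal protein genes were called higher and 4 lower, the same counts as with all libraries but not for the same genes. MRPL12 lost its call (edgeR adjusted p = 0.109) and MRPS26 gained one (0.022), so that 5 large and 3 small subunit genes rose, rather than 6 and 2.

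Mic60 silencing left most messages of the mitochondrial ribosome near their control level. Of the 76 genes, 8 rose and 4 fell at an edgeR adjusted p under 0.05, which is 10.5% and 5.26% of the set, against 17.7% of all genes tested called higher and 17.9% called lower. Together, 15.8% of the set was called, against a background of 35.5%. Only 7 of the 76 were called with a change of more than 1.5-fold (9.21%), against 24.9% of all genes tested. The 2 groups did not overlap for 10 genes that were higher and 8 that were lower in siMic60 libraries, against 47.9% of all genes with no overlap in either direction. With scaling by library totals in place of TMM, 7 genes were called higher and 8 lower, so the balance between rises and falls depended on the scaling. The number of falls also depended on single libraries. It was 2 without siMic60 replicate 1, 8 without siMic60 replicate 2 and 1 without siMic60 replicate 3. Over all genes tested in the same fits, 2092 of 14476, 2333 of 14404 and 2195 of 14398 fell. In bulk RNA, a lower level in a cell and fewer cells that express a gene cannot be told apart.

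The set as a whole was centred at no change. The median log2 fold change was −0.005 for the 76 genes and 0.002 for all genes tested, and 39 of the 76 had a negative value. The spread was narrower than that of the transcriptome, with an interquartile width of 0.43 against 0.74 and an SD of 0.36 against 0.79. The values of single genes ran from −0.54 (MRPL54) to 1.37 (MRPL49). The precision was similar, with a median SE of 0.161 for the set and 0.175 for all genes, and the median gene of the set stood at the 54.0th percentile of expression. The 95% interval of the change lay wholly within 1.5-fold of no change for 44 of the 76 genes (57.9%), compared with 28.3% of all genes tested. Of the 64 genes that were not called, 43 had such an interval, and for the remaining 21 a change of 1.5-fold or more in at least 1 direction remained inside the interval.

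**Figure D1:**
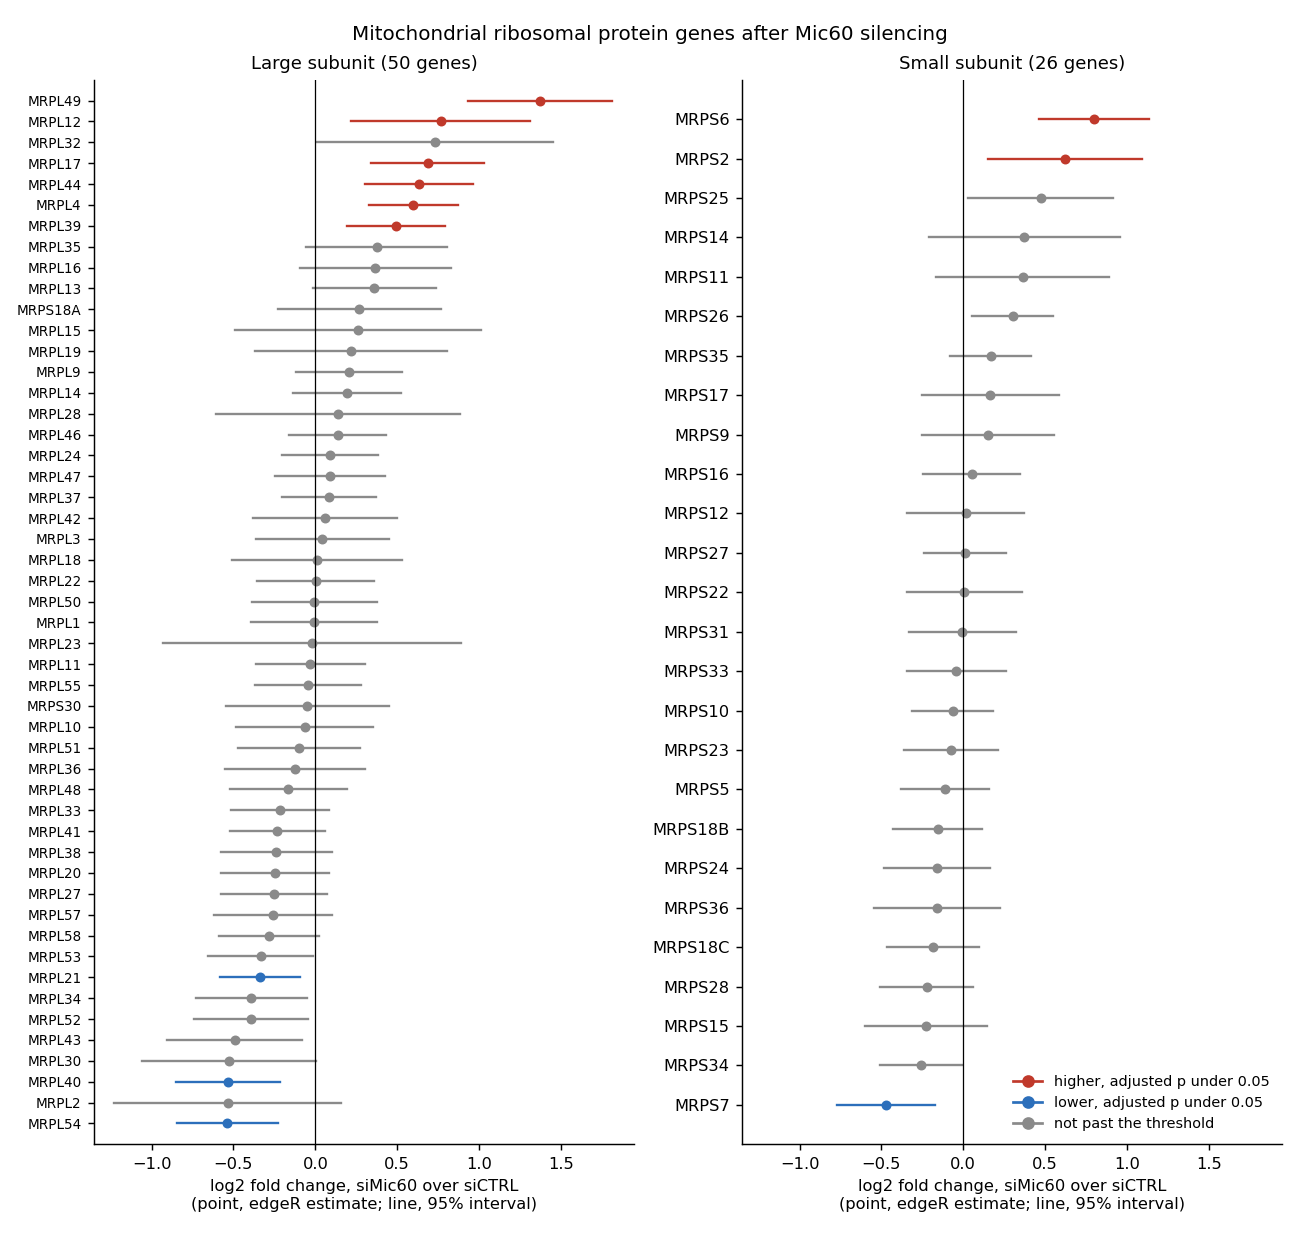
Change of each mitochondrial ribosomal protein gene, with the log2 fold change of siMic60 over siCTRL on the x axis (points, edgeR estimates; lines, 95% intervals; red, called higher; blue, called lower; grey, not past the threshold), for the 50 large subunit genes on the left and the 26 small subunit genes on the right. Most intervals span 0, MRPL49 stands farthest to the right at 1.37, and the lowest estimate is −0.54, for MRPL54.

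**Figure D2:**
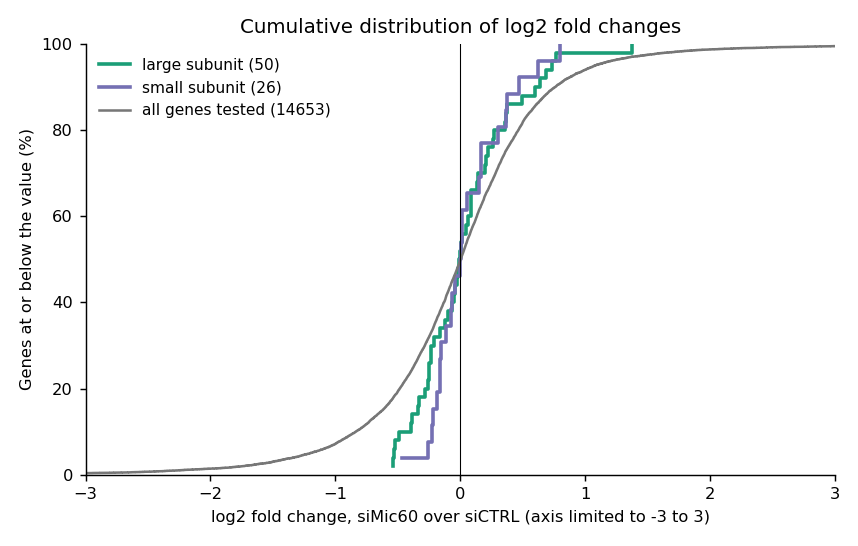
Cumulative share of genes, in percent, at or below each log2 fold change of siMic60 over siCTRL, for the large subunit (50 genes), the small subunit (26 genes) and all 14653 genes tested. Both subunit curves cross 0 near the middle, as the curve of all genes does, and climb over a narrower range of values.

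MRPL49, a mitochondria-specific protein of the large subunit, had the largest increase. It measured 21.2, 19.5 and 22.1 CPM in the siMic60 libraries, against 5.75, 8.13 and 10.4 CPM in the siCTRL libraries. Each siMic60 library was well above the highest siCTRL library, and the increase was 2.59-fold (95% interval 1.91 to 3.52; log2 fold change 1.37, SE 0.21, edgeR adjusted p = 0.000128). MRPS6, the counterpart of the bacterial small subunit protein S6, followed with 25.5, 26.8 and 26.2 CPM in siMic60, against 17.6, 13.5 and 13.9 CPM in siCTRL. Its groups did not overlap, with an increase of 1.74-fold (95% interval 1.38 to 2.20; edgeR adjusted p = 0.0012). Both rises were called under all 13 alternative settings.

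Further rises in the large subunit were smaller. MRPL17, a bacterial-type protein at the rim of the exit tunnel, had 20.4, 21.4 and 22.7 CPM after siMic60, against 13.5, 11.9 and 14.7 CPM in siCTRL (log2 fold change 0.69, SE 0.16, edgeR adjusted p = 0.00392). MRPL44, which carries a fold related to ribonuclease III, had 24.8, 26.7 and 24.4 CPM after siMic60, against 15.9, 14.5 and 18.5 CPM in siCTRL (0.63, SE 0.15, adjusted p = 0.005). MRPL4, the counterpart of the bacterial protein L4 that reaches into the exit tunnel, had 42, 41.9 and 41.3 CPM after siMic60, against 25.5, 27.9 and 29.2 CPM in siCTRL (0.60, SE 0.13, adjusted p = 0.00205). For these genes the lowest siMic60 library exceeded the highest siCTRL library, and the siMic60 libraries lay close to each other. MRPL39, whose protein resembles part of a threonyl-tRNA synthetase, had 53.7, 53.8 and 55.3 CPM after siMic60, against 31.2, 43.9 and 40.7 CPM in siCTRL (0.49, SE 0.14, adjusted p = 0.0129). All 4 remained called under every alternative setting.

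MRPL12 and MRPS2 also passed the threshold, but with less certainty. MRPL12, the protein of the flexible stalk that recruits translation factors, had 10.3, 7.22 and 9.57 CPM after siMic60, against 3.84, 5.75 and 6.29 CPM in siCTRL (log2 fold change 0.77, SE 0.26, edgeR adjusted p = 0.0308). These levels rest on 59 to 83 counts per siMic60 library and 32 to 51 counts per siCTRL library. The call for MRPL12 was lost without siMic60 replicate 1 (adjusted p = 0.0914), siMic60 replicate 3 (0.0913), siCTRL replicate 1 (0.109) or siCTRL replicate 2 (0.0578). MRPS2, the counterpart of bacterial S2, had 14.3, 14.6 and 9.45 CPM after siMic60, against 9.35, 8.25 and 7.15 CPM in siCTRL (0.62, SE 0.22, adjusted p = 0.0396). Its siMic60 replicate 3 lay only just above siCTRL replicate 1, and the call was lost with library totals (adjusted p = 0.057) and without siMic60 replicate 1 (0.113), siMic60 replicate 2 (0.132), siCTRL replicate 2 (0.0958) or siCTRL replicate 3 (0.135).

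**Figure D3:**
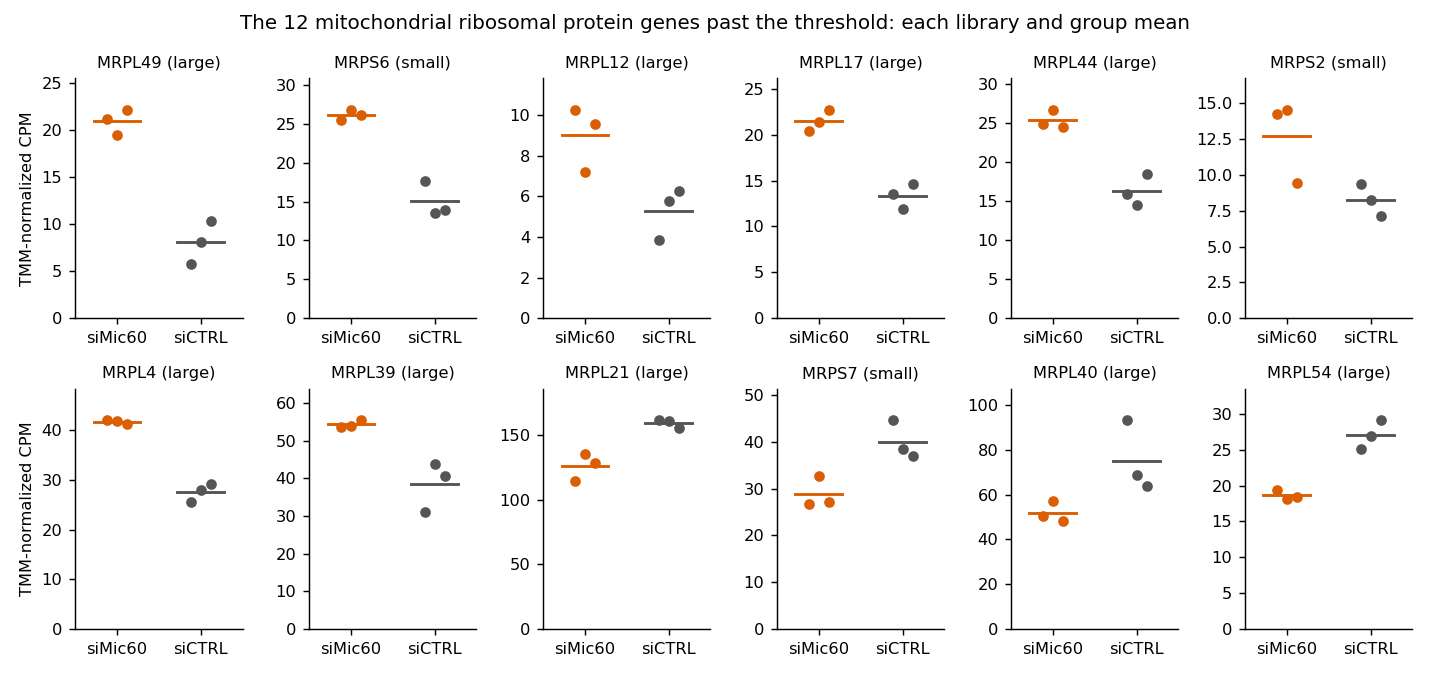
TMM-normalized CPM of the 12 genes past the threshold in each library (points) with the group mean (horizontal line), siMic60 in orange to the left of siCTRL in grey, each panel with its own y axis from 0. The points of the groups do not overlap in any panel. MRPL21 is the most abundant of the 12 and MRPL12 the least.

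The decreases were all below 1.5-fold. MRPL54, a mitochondria-specific protein of the stalk region, had 19.3, 18.1 and 18.4 CPM after siMic60, against 25, 26.9 and 29.1 CPM in siCTRL (log2 fold change −0.54, SE 0.14, edgeR adjusted p = 0.00915). The siMic60 libraries were tightly grouped below every siCTRL library, and this was the only decrease called under all 13 alternatives. MRPL40, a protein of the central protuberance, had 50.6, 57.0 and 48.4 CPM after siMic60, against 93.2, 68.9 and 63.7 CPM in siCTRL, with siCTRL replicate 1 far above the others (−0.53, SE 0.15, adjusted p = 0.0115). Without siMic60 replicate 3 the adjusted p of MRPL40 was 0.052.

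MRPS7, the counterpart of the bacterial protein S7 in the head of the small subunit, had 26.7, 32.7 and 27.2 CPM after siMic60, against 44.6, 38.4 and 37.0 CPM in siCTRL (log2 fold change −0.47, SE 0.14, edgeR adjusted p = 0.0171). The call for MRPS7 was lost without siMic60 replicate 1 (adjusted p = 0.0681) or siMic60 replicate 3 (0.0629). MRPL21, a bacterial-type protein bound to the large rRNA, had 115, 135 and 128 CPM after siMic60, against 161, 161 and 156 CPM in siCTRL (−0.34, SE 0.11, adjusted p = 0.0312). MRPL21 was the most abundant large subunit message, and its call was among the least stable. It was lost without a count minimum (adjusted p = 0.0548), with a replicate block (0.0539) and without siMic60 replicate 1 (0.128), siMic60 replicate 3 (0.0608), siCTRL replicate 2 (0.087) or siCTRL replicate 3 (0.0611).

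The subunits were then set side by side. Of the 50 large subunit genes, 6 rose (12%) and 3 fell (6%), with a median log2 fold change of −0.007. Of the 26 small subunit genes, 2 rose (7.69%) and 1 fell (3.85%), with a median of 0.001. Of all genes tested, 17.7% were called higher and 17.9% lower. With library totals, the subunit counts were 6 and 6 for the large and 1 and 2 for the small subunit. All genes tested then gave 2223 rises and 3003 falls. The interval of the change lay within 1.5-fold for 25 of 50 large (50%) and 19 of 26 small subunit genes (73.1%), against 28.3% of all genes. The median SE was 0.167 for the large and 0.147 for the small subunit. The counts of calls in each subunit stayed as they were when MRPS18A and MRPS30 were moved to the small subunit by symbol. No test between the subunits was made.

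Summed over its genes, the large subunit measured 1300, 1415 and 1326 CPM in the siMic60 libraries, against 1484, 1422 and 1375 CPM in the siCTRL libraries. The groups overlapped, since siMic60 replicate 2 exceeded siCTRL replicate 3. The small subunit sum was 1246, 1325 and 1216 CPM after siMic60, against 1281, 1260 and 1266 CPM in siCTRL. Here the highest library was siMic60 replicate 2 and the lowest siMic60 replicate 3, so the siMic60 values enclosed those of siCTRL. The ratio of the large to the small sum was 1.07 ± 0.0237 in siMic60 and 1.12 ± 0.0365 in siCTRL (SD, n = 3 each). It also overlapped, because siMic60 replicate 3 lay above siCTRL replicate 3. These sums weight abundant genes most, and MRPL21 alone averaged 126 CPM after siMic60 and 159 CPM in siCTRL.

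**Figure D4:**
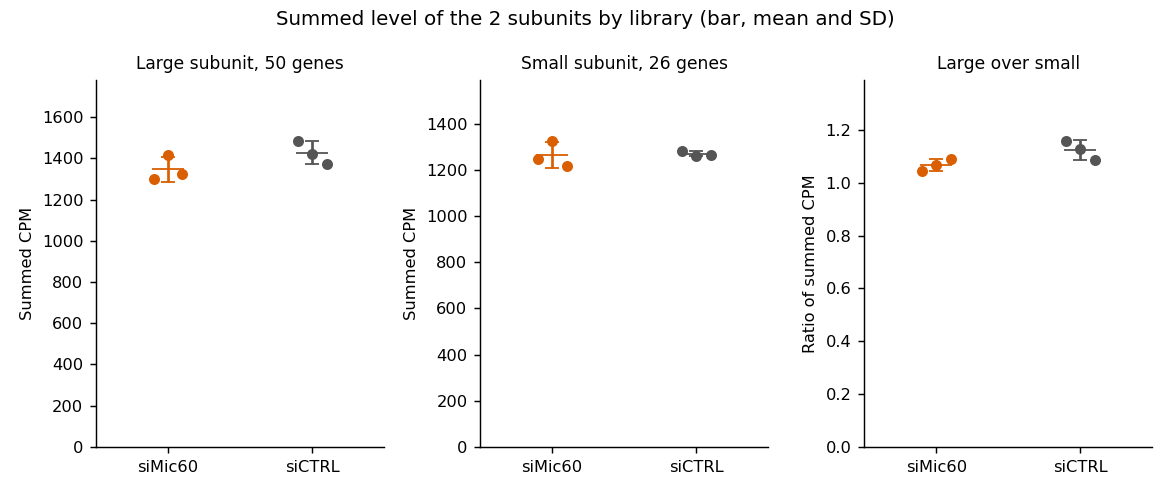
Summed TMM-normalized CPM of the 50 large subunit genes (left) and the 26 small subunit genes (middle), and the ratio of the sums (right), for each library (points) with the mean and SD (bars), siMic60 to the left of siCTRL, on y axes from 0. Means are 1347 CPM (siMic60) and 1427 CPM (siCTRL) for the large and 1262 CPM (siMic60) and 1269 CPM (siCTRL) for the small subunit, and the points of the groups overlap in each panel.

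By evolutionary origin, the calls fell on both kinds of protein in the large subunit. Among 30 tested large subunit genes with a bacterial counterpart, 3 rose (MRPL12, MRPL17 and MRPL4) and 1 fell (MRPL21), with a median log2 fold change of 0.03. Among 20 tested mitochondria-specific genes of that subunit, 3 rose (MRPL49, MRPL44 and MRPL39) and 2 fell (MRPL54 and MRPL40), with a median of −0.13. In the small subunit the 2 rises (MRPS6 and MRPS2) and the fall (MRPS7) were all among the 15 genes with a bacterial counterpart. None of the 11 mitochondria-specific small subunit genes was called by edgeR, and for 10 of them the interval lay within 1.5-fold. These 11 genes had a median SE of 0.134 and a median level of 35.3 CPM, against 0.175 and 20.9 CPM for all genes tested. With a bacterial counterpart, 13.3% of large and 20% of small subunit genes were called. Of the mitochondria-specific genes it was 25% and 0%. Of all genes tested, 35.5% were called, and 28.3% had an interval within 1.5-fold.

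MRPS26, MRPS34 and MRPS35 are mitochondria-specific proteins and the most abundant messages of the small subunit. MRPS26 had 169, 154 and 158 CPM after siMic60, against 142, 121 and 126 CPM in siCTRL, without overlap and with an edgeR adjusted p of 0.0538. Its adjusted p was 0.0397 with DESeq2, 0.0433 with limma-trend and 0.022 without siCTRL replicate 1. MRPS34 had 139, 138 and 135 CPM after siMic60, against 156, 152 and 185 CPM in siCTRL, also without overlap (adjusted p = 0.099), and reached an adjusted p of 0.0471 only with library totals. MRPS35 had 122, 124 and 118 CPM after siMic60, against 98.0, 114 and 112 CPM in siCTRL (adjusted p = 0.283). MRPS26 and MRPS35 were thus higher in every siMic60 library and MRPS34 lower, none of them past the threshold.

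Within the large subunit, the structural lists are short and held 1 or 2 calls each. The stalk list holds MRPL10, MRPL11, MRPL12, MRPL53 and MRPL54, of which MRPL12 rose and MRPL54 fell. That is 40% of the list called, against 35.5% of all genes tested. MRPL10 averaged 10.9 CPM after siMic60 and 11.5 CPM in siCTRL, and MRPL11 averaged 20.1 CPM after siMic60 and 20.5 CPM in siCTRL. MRPL53 averaged 32.4 ± 5.05 CPM after siMic60 and 40.8 ± 5.33 CPM in siCTRL (SD, n = 3 each), with an edgeR adjusted p of 0.0981 that became 0.0419 without siMic60 replicate 2. At the rim of the exit tunnel, through which new chains leave towards the membrane, 1 of 5 tested genes was called (20%). MRPL17 rose, whereas MRPL22, MRPL23, MRPL24 and MRPL47 had log2 fold changes of 0.00, −0.02, 0.09 and 0.09. MRPL22 was the steadiest of them, at 13.6 ± 0.0783 CPM after siMic60 and 13.5 ± 0.665 CPM in siCTRL (SD, n = 3 each).

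In the central protuberance, the crown of the large subunit, 1 of 9 genes was called (11.1%), against 35.5% of all genes tested. Apart from MRPL40, the log2 fold changes were −0.39 for MRPL52, −0.28 for MRPL58, −0.25 for MRPL27, −0.24 for MRPL38, −0.16 for MRPL48, −0.04 for MRPL55, 0.01 for MRPL18 and 0.14 for MRPL46. Estimates were thus negative for 7 of the 9 (77.8%), with a median of −0.24. A negative estimate was found for 49.8% of all genes tested and 51.3% of the set. Among the 38 genes of the set above its median level, the share was 65.8%. The 9 genes of the central protuberance had a median level of 37.4 CPM, against 24.7 CPM for the set. MRPL58, a peptidyl-tRNA hydrolase that frees stalled ribosomes, had 66.8, 91.5 and 63.9 CPM after siMic60, against 96.4, 89.1 and 85.2 CPM in siCTRL (edgeR adjusted p = 0.138), so that siMic60 replicate 2 lay among the siCTRL libraries. Without that library MRPL58 had a log2 fold change of −0.45 with an adjusted p of 0.0184, and MRPL38 −0.43 with 0.0433. MRPL52 had 61.6, 75.9 and 63.5 CPM after siMic60, against 114, 79.0 and 71.0 CPM in siCTRL (adjusted p = 0.0754), and here siCTRL replicate 1 stood apart.

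The MRPS18 paralogs, which take different places in the ribosome, were not called. MRPS18A averaged 10.2 ± 1.81 CPM after siMic60 and 8.39 ± 2.12 CPM in siCTRL, and MRPS18B averaged 33.4 ± 1.23 CPM after siMic60 and 37.2 ± 2.69 CPM in siCTRL. MRPS18C averaged 61.1 ± 8.18 CPM after siMic60 and 69.7 ± 5.72 CPM in siCTRL (SD, n = 3 each). MRPS30, the other gene with a small subunit symbol and a place in the large subunit, had 6.13, 6.12 and 5.88 CPM after siMic60, against 6.71, 6 and 6.04 CPM in siCTRL. MRPS12, a protein of the decoding centre, averaged 18.4 ± 1.25 CPM after siMic60 and 18.1 ± 2.80 CPM in siCTRL (SD, n = 3 each), and the 95% interval of its log2 fold change was −0.34 to 0.37. For these genes the groups overlapped.

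Message levels within the set were far from even. The proteins of the ribosome are present in fixed proportions, but protein was not measured here. Mean levels over all 6 libraries ran from 2.18 CPM (MRPL23) to 151 CPM (MRPS34). The 6 most abundant messages, MRPS34, MRPS26, MRPL21, MRPS35, MRPS23 and MRPS16, held 28.9% of the summed level. The median level was 21.2 CPM for large and 34.1 CPM for small subunit genes. Lower estimates went with higher levels across the set, with a Spearman correlation of −0.36 between level and log2 fold change over the 76 genes, compared with 0.07 over all genes tested, as a description across genes that share the same libraries. Of the 38 genes above the median level, 25 had a negative estimate, and of the 38 at or below it, 24 had a positive estimate. The calls were 2 rises (5.26%) and 3 falls (7.89%) above the median level and 6 rises (15.8%) and 1 fall (2.63%) at or below it. Of all genes tested, 17.7% were called higher and 17.9% lower.

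The proteins of the mitochondrial ribosome that carry other names stayed below the threshold. DAP3, PTCD3, CHCHD1 and AURKAIP1 of the small subunit and GADD45GIP1 of the large subunit gave no call in 5 genes tested, and all 5 intervals lay within 1.5-fold. Of all genes tested, 35.5% were called and 28.3% had an interval within 1.5-fold. The 5 genes are abundant and were measured with more precision. Their median level was 282 CPM and their median SE 0.107, against 20.9 CPM and 0.175 for all genes tested. AURKAIP1 averaged 443 ± 15.4 CPM after siMic60 and 451 ± 11.2 CPM in siCTRL, and CHCHD1 averaged 373 ± 22.1 CPM after siMic60 and 341 ± 14.3 CPM in siCTRL (SD, n = 3 each). PTCD3, an RNA-binding pentatricopeptide repeat protein, had 90.3, 77.3 and 86.8 CPM after siMic60, against 76.2, 74.2 and 66.3 CPM in siCTRL, without overlap and with an edgeR adjusted p of 0.151.

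Among factors that build the mitochondrial ribosome or modify its rRNA, 3 of 25 tested genes rose and 4 fell, that is 28% of the list called, against 35.5% of all genes tested. METTL17, which binds the small subunit during its assembly, averaged 47.0 ± 1.14 CPM after siMic60 and 30.4 ± 0.80 CPM in siCTRL (SD, n = 3 each; log2 fold change 0.63, edgeR adjusted p = 0.00107). MTG1, a GTPase of large subunit assembly, averaged 14.4 ± 2.21 CPM after siMic60 and 8.82 ± 1.14 CPM in siCTRL (0.70, adjusted p = 0.0129). TRMT2B, an rRNA and tRNA methyltransferase, fell to 13.8 ± 1.77 CPM in siMic60 cells, against 21.8 ± 1.45 CPM in siCTRL cells (−0.67, adjusted p = 0.00517). NGRN, needed for the large rRNA, averaged 65.0 ± 6.96 CPM after siMic60 and 91.3 ± 10.5 CPM in siCTRL (−0.49, adjusted p = 0.00851). Without siMic60 replicate 1 or siMic60 replicate 3 only 2 genes of the list fell. The call for MTG1 was lost without siMic60 replicate 3 (adjusted p = 0.0646) or siCTRL replicate 2 (0.0672).

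Among 16 mitochondrial translation factors, 1 rose and 2 fell, or 18.8% called, against the same 35.5% of all genes tested. GFM2, which splits ribosomes after termination, had 15.9 ± 1.66 CPM after siMic60 and 10.1 ± 1.4 CPM in siCTRL (SD, n = 3 each; log2 fold change 0.65, edgeR adjusted p = 0.0139). MTFMT, which formylates the initiator tRNA, had 12.9 ± 2.11 CPM after siMic60 and 20.8 ± 0.988 CPM in siCTRL (−0.69, adjusted p = 0.00553). MTIF2, the initiation factor, averaged 58.1 ± 3.24 CPM after siMic60 and 73.5 ± 4.93 CPM in siCTRL (−0.34, adjusted p = 0.0369). The call for GFM2 was lost without siMic60 replicate 1 (adjusted p = 0.0525) or siCTRL replicate 3 (0.0718), and without siCTRL replicate 2 the list had 2 rises. The call for MTIF2 was lost in 6 of 13 alternatives, with the replicate block (adjusted p = 0.0608), without a count minimum and without siMic60 replicate 1, siMic60 replicate 3, siCTRL replicate 2 or siCTRL replicate 3. The rRNAs and messages encoded by mitochondrial DNA were not analysed here.

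Some of these genes overlap others, and no source used here gives the strand setting of the counting, so reads from overlapping exons cannot be assigned with certainty. Overlaps were sought only with genes of the table that averaged at least 10 counts per library. In the GENCODE 29 annotation, 29 of the 76 tested genes share exon sequence with such a gene, 20 of them with a gene on the opposite strand. Of the 12 called genes, 8 have no such overlap, 5 of the rises and 3 of the falls. MRPL49 overlaps FAU, a ribosomal protein gene, and SYVN1, both on the opposite strand. FAU averaged 854 CPM after siMic60 and 856 CPM in siCTRL, and SYVN1 averaged 42.8 CPM after siMic60 and 30.7 CPM in siCTRL (log2 fold change 0.48, edgeR adjusted p = 0.0112). MRPS2 overlaps PIERCE1 on the opposite strand, which fell to 6.30 CPM in siMic60 cells, against 17.6 CPM in siCTRL cells (−1.47, adjusted p = 0.000169). MRPS6 shares sequence with SLC5A3 on the same strand, which averaged 9.87 CPM after siMic60 and 9.02 CPM in siCTRL (adjusted p = 0.681). MRPS7 overlaps GGA3 and MIF4GD, neither of them called. The part of these neighbours in the calls was not tested.

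A transcript antisense to MRPL20 moved more than the gene itself. MRPL20-AS1 had 37.4, 53.0 and 36.4 CPM after siMic60, against 90.7, 68.4 and 66.3 CPM in siCTRL (log2 fold change −0.83, SE 0.17, edgeR adjusted p = 0.00128), while MRPL20 averaged 51.8 ± 8.30 CPM after siMic60 and 61.5 ± 11.2 CPM in siCTRL (SD, n = 3 each; adjusted p = 0.233). Without a strand setting, reads of the pair cannot be told apart. Pseudogene copies were mostly silent, with any count in 7 of 73 rows. MRPS17P1 averaged 23.3 CPM after siMic60 and 16.0 CPM in siCTRL (adjusted p = 0.0504), above MRPS17 itself, which averaged 11.2 CPM after siMic60 and 9.96 CPM in siCTRL, so that reads of the near-identical copies may have been divided between them.

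Some of these genes start close to a neighbour on the opposite strand, a layout in which a promoter region can serve both. In GENCODE 29, 19 of the tested genes have a tested head-to-head neighbour with a start within 1000 bp, and MRPL46 and MRPS11 face each other. Neighbours were sought among genes that averaged at least 10 counts per library. Of the 17 neighbours that are not themselves in the set, 6 rose and 2 fell, against a background of 17.7% of all genes tested called higher and 17.9% called lower, and 2 of the 17 genes they face, MRPL54 and MRPL21, fell. The log2 fold changes had opposite signs in 10 of these 17 pairs and the same sign in the others, so the pairs described next do not stand for all. MRPL54 fell while APBA3, the gene it faces, rose to 16.2 CPM in siMic60 cells, against 10.8 CPM in siCTRL cells (log2 fold change 0.58, edgeR adjusted p = 0.0155). TWNK, the helicase of mitochondrial DNA, rose to 20.4 CPM in siMic60 cells, against 11.9 CPM in siCTRL cells (0.77, adjusted p = 0.00675), and it faces MRPL43, which averaged 9.53 CPM after siMic60 and 13.4 CPM in siCTRL (−0.49, adjusted p = 0.0607). MRPL43 and TWNK also share exon sequence on opposite strands, so their reads cannot be assigned with certainty. SKA3, a kinetochore gene, averaged 23.2 CPM after siMic60 and 12.2 CPM in siCTRL (0.93, adjusted p = 0.00128), next to MRPL57 at 19.7 CPM after siMic60 and 23.6 CPM in siCTRL. NDUFS6, a complex I gene, fell to 249 CPM in siMic60 cells, against 381 CPM in siCTRL cells (−0.61, adjusted p = 0.00215), next to MRPL36 at 12.7 CPM after siMic60 and 13.9 CPM in siCTRL. These pairs were looked up after the values were seen.

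**Figure D5:**
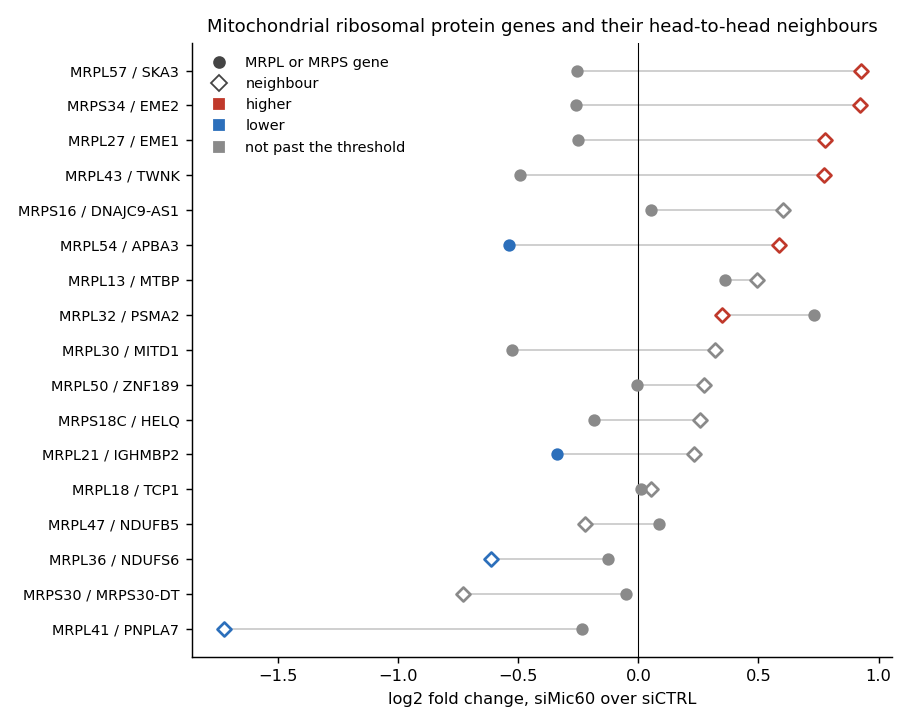
Log2 fold change of siMic60 over siCTRL (x axis) for 17 mitochondrial ribosomal protein genes (filled circles) and the gene each faces head to head (open diamonds), a row for each pair (red, called higher; blue, called lower; grey, not past the threshold). In the MRPL54 and APBA3 pair the genes were called in opposite directions, at −0.54 and 0.58.

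Promoter windows of 250 bases before to 50 after the start were found in RefSeq (GRCh38.p14) for 69 of the 78 genes. The counts themselves were made on hg19 (GRCh37), so the coordinates given here belong only to the RefSeq windows. Motifs chosen after the values were seen were searched on both strands. Letters of an ETS-type site, CCGGAAG, were found for 30 of the 69 genes (43.5%), compared with 22.0% of 10549 other tested genes and 12.2% of all 27305 genes with a window. The YY1-type letters AAGATGGCG were found for 13 (18.8%), compared with 4.53% and 2.14%. For the remaining motifs, the shares were near those of other tested genes, with 13.0% against 13.3% for the NRF1-type letters (GCGCA and GCGC with 1 base between them), 13.0% against 12.5% for the E-box CACGTG, 1.45% against 2.71% for the CARE letters TGATGNAA and 4.35% against 3.89% for the interferon-type core (GAAA repeated with 2 bases between). No bases were shared between matches of different motifs in windows of the set. Large and small subunit genes held the ETS letters about as often, 19 of 44 and 11 of 25.

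The ETS letters were found for 0 of the 8 genes called higher, for 2 of the 3 called lower that have a window, and for 27 of the 56 not called. These are counts in few genes, without a test. The 4 windows below are shown because they belong to the 2 strongest rises and the 2 strongest falls. Each runs 5′ to 3′ along the gene's own strand, in lower case with the ETS letters in capitals, which MRPL54 carries in the reverse complement.
MRPL49, chr11:65122071-65122370, plus strand: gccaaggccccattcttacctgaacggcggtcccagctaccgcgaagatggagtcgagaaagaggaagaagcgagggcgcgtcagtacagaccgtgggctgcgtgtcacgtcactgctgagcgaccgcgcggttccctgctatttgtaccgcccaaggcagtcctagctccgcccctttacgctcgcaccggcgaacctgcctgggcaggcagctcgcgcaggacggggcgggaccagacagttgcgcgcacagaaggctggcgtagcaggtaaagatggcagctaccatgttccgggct
MRPS6, chr21:34073328-34073627, plus strand: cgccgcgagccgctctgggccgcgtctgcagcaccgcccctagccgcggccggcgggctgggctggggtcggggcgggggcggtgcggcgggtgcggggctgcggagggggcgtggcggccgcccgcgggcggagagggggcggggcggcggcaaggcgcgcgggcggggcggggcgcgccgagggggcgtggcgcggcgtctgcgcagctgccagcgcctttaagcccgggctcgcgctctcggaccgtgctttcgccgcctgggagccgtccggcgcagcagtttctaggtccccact
MRPL54, chr19:3762432-3762731, plus strand: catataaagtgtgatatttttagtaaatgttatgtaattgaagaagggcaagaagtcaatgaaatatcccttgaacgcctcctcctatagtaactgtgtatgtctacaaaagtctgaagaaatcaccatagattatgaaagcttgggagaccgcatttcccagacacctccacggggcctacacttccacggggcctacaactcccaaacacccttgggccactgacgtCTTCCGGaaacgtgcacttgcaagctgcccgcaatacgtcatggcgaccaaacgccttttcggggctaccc
MRPL40, chr22:19432295-19432594, plus strand: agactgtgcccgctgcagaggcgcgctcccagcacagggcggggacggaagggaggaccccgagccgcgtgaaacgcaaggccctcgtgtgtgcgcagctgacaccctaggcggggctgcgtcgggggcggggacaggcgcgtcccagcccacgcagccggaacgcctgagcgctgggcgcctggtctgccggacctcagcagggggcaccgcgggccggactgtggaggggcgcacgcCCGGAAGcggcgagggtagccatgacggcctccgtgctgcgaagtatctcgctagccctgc
The windows of MRPL49 and MRPS6 hold no match to any of the 6 motifs. Another start of MRPL49, a little upstream, gives a window with an E-box at its far end. MRPS6 has the window richest in G and C of the 4, at 82.0%, and MRPL54 the poorest, at 47.3%.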

How the data were processed

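RNA from 3 siMic60 and 3 siCTRL samples of PC3 cells was sequenced from QuantSeq 3′ mRNA libraries, and the authors deposited whole-number counts per Ensembl gene, 1 column per library, without normalization. RSEM 1.2.3, DESeq2 and hg19 (GRCh37) appear in the submitters' processing notes with no role given. RSEM estimates counts, so the deposited counts may be rounded estimates. Aligner, annotation release and strand setting: not given in the sources used here. The study describes its replicates as independent and biological in a general statement that does not name this dataset, and the labels say nothing on cultures, so part of the spread behind the p-values may be technical. Library totals of 6644495 to 8779877 counts set the precision.

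Symbols were assigned to 39591 of 57736 rows, 39501 from a table of current names and 90 from GENCODE 29. A minimum of 10 counts in 3 or more libraries left 14653 genes, tested with edgeR 4.0.16 in R 4.3.3 (TMM, quasi-likelihood test, Benjamini-Hochberg adjusted p under 0.05 over all of them). Fold changes are siMic60 over siCTRL, and levels are TMM-normalized CPM. The test was tried on simulated counts for this comparison (14433 genes). It called 25 of 66 genes given a 1.5-fold change. At 2-fold it called 46 of 66, and at 5-fold 65 of 65. Of 14236 genes left unchanged it called 7. Few genes were changed in the simulation and the spread depended on level alone, whereas 5204 of 14653 genes were called in the data. The share recovered may therefore differ in the data, which was not tested. The genes of the set and the lists (origin, stalk, exit tunnel rim, central protuberance, MRPS18 paralogs, proteins with other names, assembly and rRNA modification, translation factors, mitochondrially encoded rRNA and mRNA, and markers) were chosen with earlier results of these data known. No list was tested. Named genes were IMMT, the 10 largest increases and decreases among called genes of the set that averaged 5 CPM or more without overlap, the MRPS18 genes, MRPS30, MRPL12, MRPS12, MRPL58, the 3 most abundant of each subunit, the genes of the structural lists and, in the other lists, the 4 called genes with the smallest adjusted p. Other genes were named after their values were seen, as were the overlap, head-to-head and motif counts made.

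Alternatives were DESeq2 1.42.0, limma-trend (limma 3.58.1, prior count of 2), scaling by DESeq2 size factors or by library totals, no count minimum, a minimum of 50 counts, a replicate block, each library left out in turn, and a split of the subunits by symbol. Overlaps and neighbours were read from GENCODE 29, a GRCh38 annotation, by gene identity only. Sequences and coordinates of promoters come from RefSeq (GRCh38.p14).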

Additional observations from a re-analysis of the deposited data

How the results depend on the processing

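Of the 12 calls in the set, 7 held under all 13 alternatives (MRPL49, MRPS6, MRPL17, MRPL44, MRPL4, MRPL39 and MRPL54), and none changed sign. Another 11 genes passed the threshold under at least 1 alternative, and 53 under none. With library totals, 8 genes of the set fell rather than 4, 6 rather than 3 in the large subunit and 2 rather than 1 in the small subunit, and 1 small subunit gene rose rather than 2. The subunit medians were then −0.062 for the large and −0.056 for the small subunit, with the median of all genes at −0.055, and 2223 of all genes rose and 3003 fell, against 2587 and 2617 with TMM. Both subunit medians lie near 0 and change sign between alternatives. With each library left out in turn, the set had 6 to 8 rises and 1 to 8 falls, the large subunit 5 to 7 and 1 to 7, and the small subunit 1 to 3 and 0 to 1. Over all genes tested, these fits had 2081 to 2300 rises and 2067 to 2333 falls. The medians then ran from −0.026 to 0.016 in the large and from −0.061 to 0.0048 in the small subunit, where −0.061 is the value without siMic60 replicate 2. The cause of these shifts was not tested.

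No pairing of the samples by replicate number was seen, although with 3 libraries per group a pairing could be missed. Same-numbered libraries deviated from their group means with correlations of −0.10, −0.03 and 0.03, and not every library correlated best with its own number. With the replicate block, the set had 8 rises and 3 falls, and 2384 of all genes rose and 2382 fell. Over 48 named genes, 585 values kept their call, 28 lost it and 10 gained one. A gene that was not called may still differ by as much as its interval allows.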
